A study of Mus musculus with 2 samples.

Results

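Purkinje cell genes were described in cerebellum that carried breast tumors. The set holds 8 of the 19465 genes in both count matrices, and its members (Pcp2, Pcp4, Calb1, Car8, Itpr1, Slc1a6, Rora and Foxp2) were listed by name as known markers of this cell, by a rule that uses no measured value, at a time when earlier results of these data were known. The data are 2 Visium CytAssist sections, each 5 µm thick, of formalin-fixed paraffin-embedded tissue from biological replicates, so 1 mouse stands behind each section and all mice belong to 1 group. Both have the genotype HP and no treatment. HP tumor organoids came from mammary tumors of mice with HER2 V777L and PIK3CA H1047R, in which an actin promoter drives a human HER2 transgene behind a Lox-STOP-Lox element and Cre adenovirus was given into the mammary gland. The organoids carried luciferase and were injected into the cerebellum of 5-month-old syngeneic B6 mice with an intact immune system. The titles name the organoids of section 1 HP-F1 and those of section 2 HP-B6, while the cell line label reads B6-HP for both. Whether HP-F1 has another background is not settled. No section of a cerebellum without tumor was analysed here.

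Purkinje cells are the large inhibitory neurons whose bodies form a single layer between the molecular layer and the granule cell layer of the cerebellar cortex, and their axons are the only output of that cortex. Their dendrites fill the molecular layer and receive parallel fibers from granule neurons and climbing fibers from the brainstem. Glutamate acting on metabotropic receptors there leads to inositol trisphosphate and to calcium release from internal stores, and several members act in that pathway or buffer the calcium it releases. A Visium spot is a small region that holds parts of several cells, so a lower level of a Purkinje gene can mean fewer Purkinje cells or less RNA per cell, and these cannot be told apart here.

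On GRCm38.p6, the build also called mm10, the genes lie apart from one another. Pcp2 spans chr8:3623369-3625547, Pcp4 chr16:96467606-96525793, Calb1 chr4:15881264-15906709 and Car8 chr4:8141493-8239041. Itpr1 spans chr6:108213083-108551116, Slc1a6 chr10:78780086-78814825, Rora chr9:68653404-69388246 and Foxp2 chr6:14901349-15441977. The counts come from probes to the transcripts of each gene.

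Promoters are shown for Pcp2 and Pcp4, the members named for this cell that fell together next to the tumor. Their windows hold the core motif given below, and the choice was made after their values were seen. Rora, itself a member, is a nuclear receptor. AGGTCA, which reads as TGACCT from the opposite strand, is the core of the site that many such receptors bind. Only this core was searched, without the bases beside it, so a site of Rora itself was not looked for. The 250 bases before the gene start are given 5′ to 3′ on the gene's strand, from RefSeq on GRCm38.p6, with the motif in capitals. The Pcp2 window lies at chr8:3625548-3625797 on the minus strand and the Pcp4 window at chr16:96467356-96467605 on the plus strand.
Pcp2 promoter: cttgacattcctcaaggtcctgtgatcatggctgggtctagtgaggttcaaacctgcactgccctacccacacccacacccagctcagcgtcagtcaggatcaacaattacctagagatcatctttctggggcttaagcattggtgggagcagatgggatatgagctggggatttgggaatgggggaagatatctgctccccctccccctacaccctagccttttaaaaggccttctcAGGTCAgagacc
Pcp4 promoter: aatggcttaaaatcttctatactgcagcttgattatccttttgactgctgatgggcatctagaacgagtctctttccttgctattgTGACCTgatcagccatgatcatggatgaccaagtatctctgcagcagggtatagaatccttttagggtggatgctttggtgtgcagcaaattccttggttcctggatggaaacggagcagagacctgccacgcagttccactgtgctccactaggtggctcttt
The motif began 12 bases before the start in Pcp2 and 164 bases before it in Pcp4, there on the opposite strand. Only 4 of the 8 members were matched in the promoter table, and 2 of these had the motif in at least 1 window, while Slc1a6 and Rora had it in none. Counted by window, these genes had 7 windows, and 4 of them held the motif. Pcp2 had several of the 7, among them overlapping windows that share a motif, and not all of its windows held it. Over all genes, 14% of 32851 windows of this length held it on either strand, so a match describes the letters and not a bound site.

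The sections held 63986887 and 71878333 unique molecular identifiers (UMIs, 1 per captured molecule) under 3406 and 4017 spots, of which 3315 and 3999 were kept. Spots were placed in zones by lists that contain no member. Tumor spots, 915 in section 1 and 1256 in section 2, were set by epithelial and fibroblast genes. The tumors differed in these: the 7 epithelial genes summed to 43.5 CPM in the tumor spots of section 1, below the 61.2 CPM of its far cortex, and to 8706 CPM in those of section 2, while the 7 fibroblast genes summed to 52657 and 706.2 CPM. These sums were scaled to total UMIs only. In section 1 the epithelial sum of the tumor was above the 33.4 CPM of near cortex and the 37.2 CPM of the edge. The border of section 1 was thus drawn mostly by fibroblast genes, with an epithelial sum between those of near and far cortex. The edge, 205 and 315 spots, held all other spots within 3 array steps of the tumor. Beyond it, spots with a profile of granule neuron, interneuron and Bergmann glia genes were near cortex at 4 to 8 steps (196 and 212 spots) or far cortex at 9 steps or more (437 and 758 spots), and the remaining 1560 and 1436 spots, rich in oligodendrocyte and projection neuron genes, lay outside the cortex. The zones of a section came from the same mouse, and the sections used the same spot barcodes at 3024 array positions, which mark places and not cells, so spots were never used as replicates.

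**Figure D1:**
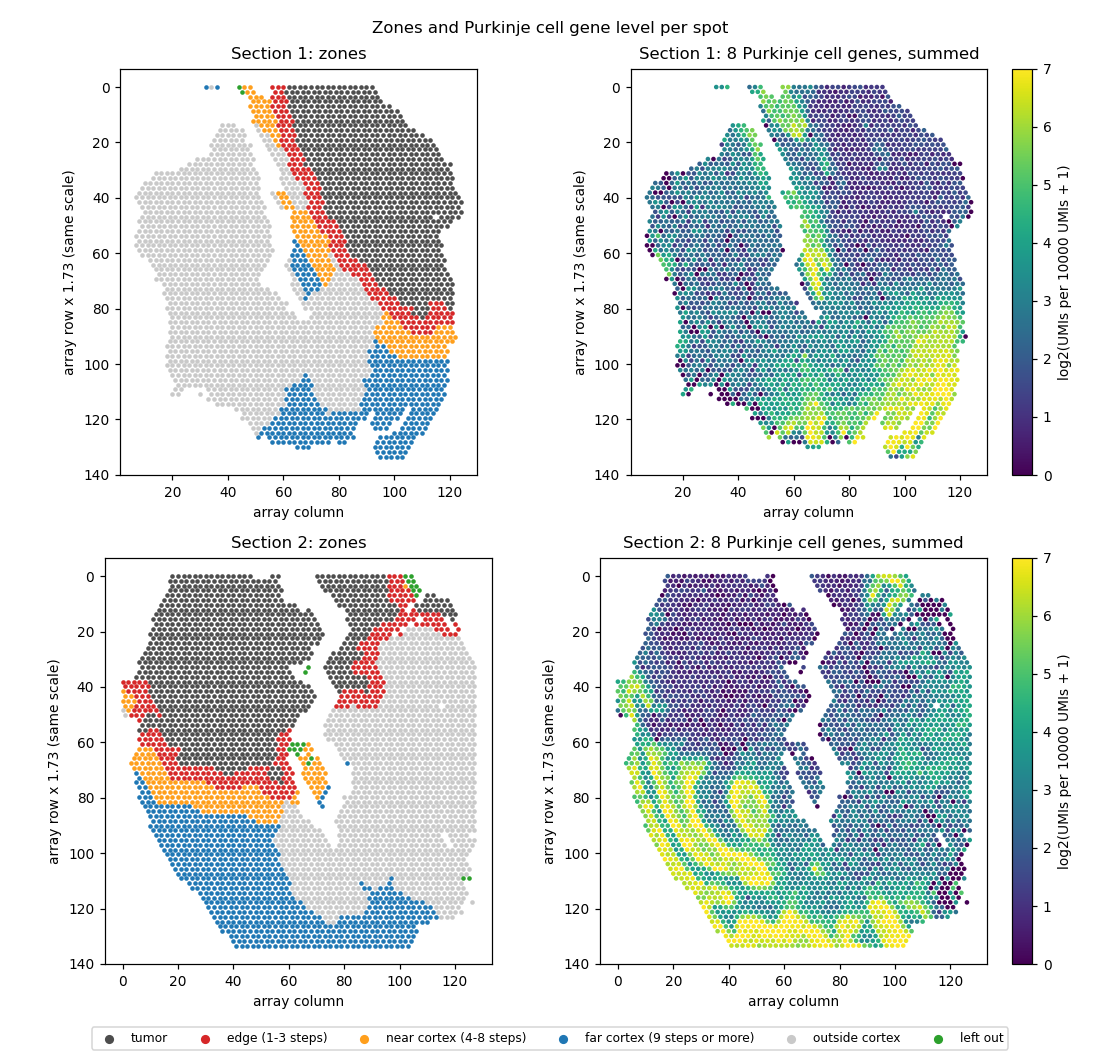
Each point is 1 spot, placed by array column and row. The left panels are colored by zone and the right panels by the summed level of the 8 Purkinje cell genes, as log2 of UMIs per 10000 UMIs plus 1. High levels form bands in the cortex zones, while most tumor and outside spots lie low.

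The location of the genes was checked first, since the cortex was set without them. In CPM (UMIs per 1000000 UMIs, scaled between libraries by the trimmed mean of M-values, TMM), Itpr1, the channel that releases calcium from the endoplasmic reticulum, was at 999.3 in far cortex and 99.4 outside the cortex in section 1, and at 1257 and 103.6 in section 2. Calb1, the calcium buffer calbindin, was at 701.6 and 74.0 in section 1 and at 1285 and 67.9 in section 2. Both genes were more than 9-fold higher in the cortex in each section, with no overlap of the zones. Against far cortex, 7 of the 8 members were called lower outside it (edgeR quasi-likelihood test, adjusted p below 0.05), where 13.1% of 18947 genes tested were called lower, and none was called higher, against 20.1% of all genes. The log2 fold changes of the 7 ran from -0.97 to -3.79, with Car8 (-3.79 ± 0.47 SE, edgeR adjusted p = 0.0034) at the low end. The members thus followed the cortex in these sections, with Foxp2 and Pcp4 the weakest.

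Pcp4, a small regulator of calmodulin, had the highest level outside the cortex relative to far cortex of the 7 members called. It was at 801.9 CPM in far cortex and 327.4 outside in section 1, and at 990.7 and 615.0 in section 2, a log2 fold change of -0.97 ± 0.26 (SE, edgeR adjusted p = 0.024). Across spots outside the cortex, its level correlated with that of the other members at r = 0.139 in section 1 and -0.032 in section 2. Its r with 5 pan-neuronal genes there was 0.156 and 0.432. In the cortex its r with the other members was 0.631 and 0.862. Low r outside the cortex was not particular to Pcp4, since that of Calb1 was 0.095 and 0.054 there and that of Rora 0.112 and 0.102. Spots of 1 section share a library and are not independent, and these correlations are descriptions over 1560 and 1436 spots outside the cortex and 633 and 970 inside it.

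Breast tumor should hold no Purkinje cells, so tumor spots, fibroblast-rich in section 1 and epithelial in section 2, give a background for each gene. All 8 members were called lower in tumor than in far cortex, in a comparison where 26.1% of all genes tested were called lower and 26.3% higher. Calb1 was at 18.0 CPM in the tumor of section 1 and 22.2 in that of section 2, with a log2 fold change of -5.57 ± 0.37 (SE, edgeR adjusted p = 2.1e-05). Pcp2, a modulator of G protein signalling found almost wholly in Purkinje cells and retinal bipolar cells, was at 15.9 and 15.3 CPM, which is 31.2-fold below far cortex. Rora and Foxp2 had the smallest differences, 5.68-fold and 3.44-fold. The Rora level in the tumor was 67.0 CPM in section 1 and 31.5 in section 2, so the sections differed, and Rora is expressed in many cell types outside the brain.

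**Figure D2:**
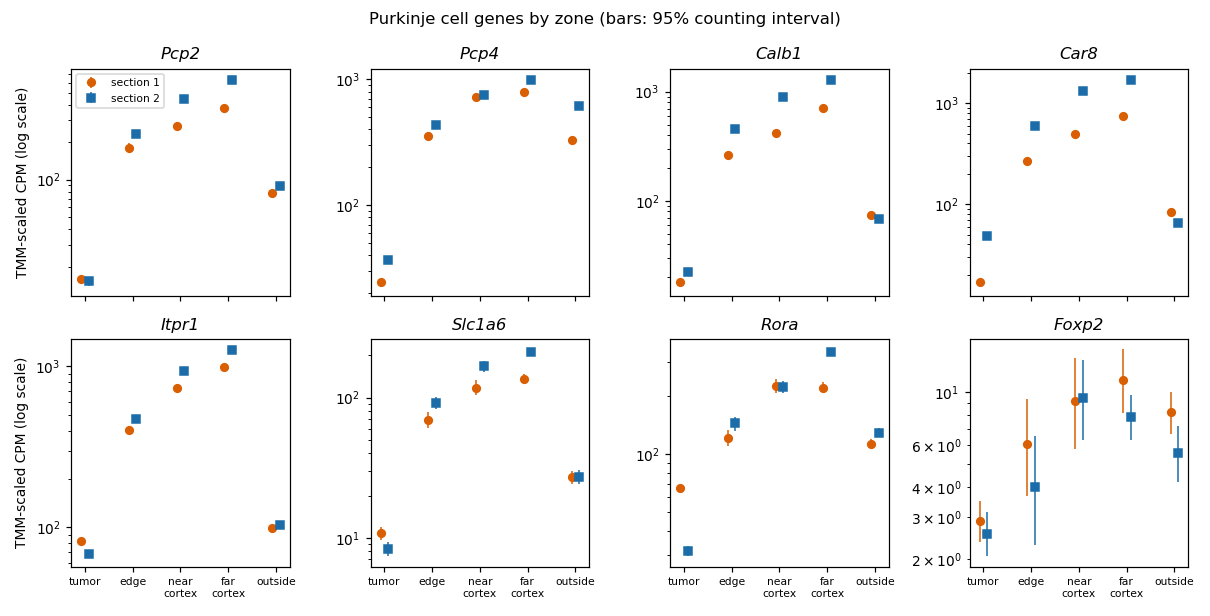
TMM-scaled CPM (log axis) of each Purkinje cell gene by zone, with section 1 as circles and section 2 as squares and bars for the 95% counting interval, which covers counting error only. For every gene and both sections the edge lies between tumor and far cortex, and Foxp2 has the widest intervals.

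Next to the tumor, over edge spots with and without a cortex profile, the members were lower than in far cortex in both sections. At the edge, 5 of the 8 members (Calb1, Itpr1, Pcp2, Pcp4 and Slc1a6) were called lower and none higher, against 0.918% of 18947 genes called lower and 5.36% called higher. The log2 fold changes of the 8 ran from -0.93 to -1.51 with a median of -1.22, and the median over all genes was -0.07. Section by section, the change had the same sign for 8 of 8 members in both mice. In the fit over both sections, 10370 of 18947 genes were below 0 at the edge. The share of all genes with the same sign in both mice is not given.

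Both members that act at the calcium release channel were lower in value. Itpr1 was at 403.2 CPM at the edge and 999.3 in far cortex of section 1, and at 474.8 and 1257 in section 2. The edge was below far cortex in each section, and the difference, 2.57-fold, had the smallest SE of the members (log2 fold change -1.36 ± 0.24 SE, edgeR adjusted p = 0.017). Car8, a carbonic anhydrase-related protein that has no enzyme activity and binds the Itpr1 channel, was at 265.9 and 744.1 CPM in section 1 and at 594.3 and 1710 in section 2. Its fold change had the largest size of the 8 and also the largest error, and it missed the threshold, although the log2 change was -1.48 in section 1 and -1.52 in section 2 (log2 fold change -1.51 ± 0.43 SE, edgeR adjusted p = 0.081).

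The calcium and calmodulin binding members were lower as well. Calb1 was at 263.2 CPM at the edge and 701.6 in far cortex of section 1, and at 458.0 and 1285 in section 2, a 2.74-fold difference (log2 fold change -1.45 ± 0.31 SE, edgeR adjusted p = 0.028). Pcp4 was at 356.3 and 801.9 CPM in section 1 and at 432.8 and 990.7 in section 2 (log2 fold change -1.18 ± 0.26 SE, edgeR adjusted p = 0.032). For Pcp4 the edge stood above the outside level in section 1 and below it in section 2, so its zones have no common order. Calb1 at the edge stayed well above its outside level in both.

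Pcp2 and Slc1a6 are expressed in few brain cells other than Purkinje cells. Pcp2 was at 180.6 CPM at the edge and 378.9 in far cortex of section 1, and at 231.7 and 627.6 in section 2 (log2 fold change -1.26 ± 0.25 SE, edgeR adjusted p = 0.024). Slc1a6, the glutamate transporter EAAT4 of the Purkinje membrane, was at 69.3 and 135.7 CPM in section 1 and at 91.6 and 212.4 in section 2 (log2 fold change -1.10 ± 0.27 SE, edgeR adjusted p = 0.045). Both were about 2-fold or more lower at the edge, with Slc1a6 close to the threshold.

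The transcription factors did not pass the test. Rora, which Purkinje cells need to develop and survive, was at 121.6 CPM at the edge and 221.0 in far cortex of section 1, and at 144.2 and 337.6 in section 2 (log2 fold change -1.07 ± 0.36 SE, edgeR adjusted p = 0.12). Foxp2, a forkhead factor of Purkinje and deep nuclear neurons, rested on 20 UMIs at the edge of section 1 and 16 at that of section 2. Its edge level was 6.05 CPM (95% counting interval 3.69 to 9.34) in section 1 and 4.03 (2.30 to 6.54) in section 2, against 11.3 (8.19 to 15.1) and 7.89 (6.30 to 9.75) in far cortex, and the intervals overlapped in both sections. Foxp2 at the edge missed the adjusted threshold, on these few UMIs (log2 fold change -0.93 ± 0.37 SE, edgeR unadjusted p = 0.034, adjusted p = 0.18).

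The calls at the edge depended on how the edge was drawn. Only 133 of the 205 edge spots in section 1 and 179 of the 315 in section 2 had a cortex profile. Far cortex was chosen by that profile, and 7 of the 8 members were called lower outside the cortex. The zone rule itself therefore favors a lower level of most members at the edge. When the edge was limited to spots of cortex profile, 0 of 8 members were called by edgeR, with 6 of 8 at an unadjusted p below 0.05. The median log2 fold change was -0.82 and the lowest edgeR adjusted p was 0.091. At that border 659 genes were still called, lower and higher together. In the main fit 8 of 8 members had an unadjusted p below 0.05 at the edge, as had 4247 of 18947 genes, lower and higher together. The number over all genes is not given for the other borders. With only the largest group of tumor spots in each section, 0 of 8 were called by edgeR, with 7 of 8 at an unadjusted p below 0.05 (median log2 fold change -0.99, lowest adjusted p = 0.06). Section 1 held 1 tumor group and section 2 held 3, so that setting changed the zones of section 2 only. With the section left out of the model as a block, 1 of 8 was called, Itpr1, and DESeq2 called 7 of 8. All 8 fold changes stayed below 0 in each of these fits.

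Other genes of Purkinje cells were lower at the edge too. Of 24 further genes, 13 were called lower at the edge and none higher, with a median log2 fold change of -1.17. Over all genes tested, 0.918% were called lower there and 5.36% higher. With the edge limited to cortex spots, 6 of the 24 were called lower, and the share of all genes called lower at that border is not given. The largest differences were those of Itpka, a kinase that phosphorylates inositol trisphosphate (log2 fold change -2.07 ± 0.22 SE), Ppp1r17, a phosphatase inhibitor of Purkinje cells (-1.78 ± 0.25), Gng13, a G protein gamma subunit (-1.67 ± 0.26), and Ptprr, a tyrosine phosphatase (-1.66 ± 0.30). Itpka was at 20.9 CPM at the edge and 92.7 in far cortex of section 1, and at 17.1 and 67.7 in section 2. At the other end stood Plcb3, a phospholipase C, with a log2 fold change of -0.18 ± 0.25 (SE, edgeR adjusted p = 0.70), and its level in the tumor, 57.4 and 85.4 CPM, was above that in far cortex, 44.6 and 58.9 CPM. No further gene had a log2 fold change above 0 at the edge. Outside the cortex, 17 of the 24 were called lower than in far cortex by edgeR, where 13.1% of all genes tested were. Gad2 and Aldoc had log2 fold changes above 0 there (0.62 and 0.43), so not all 24 followed the cortex.

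Granule neuron genes are part of the list that chose far cortex spots, and the edge was not chosen by it, so the zone rule itself favors a lower level of these genes at the edge. Edge spots without a cortex profile favor a lower level of most members as well. The granule values are given as a description. The 7 genes of that list had log2 fold changes from -1.05 to -1.65 with a median of -1.23, and 0 of 7 were called by edgeR. Of the 7, 5 had an unadjusted p below 0.05, as had 4247 of all 18947 genes tested, lower and higher together. Their standard errors reached 0.50, larger than those of most members. The counts of calls in the granule and Purkinje sets are therefore not comparable.

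**Figure D3:**
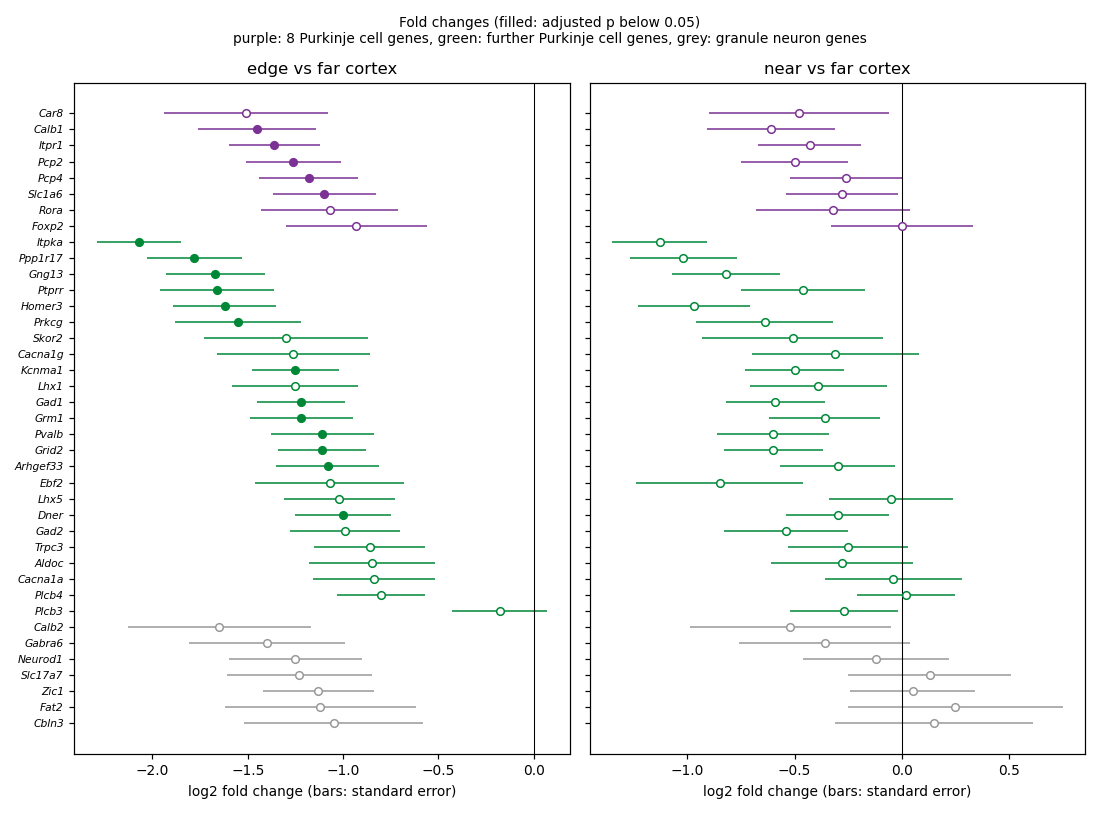
Log2 fold change with its standard error for each of the 8 Purkinje cell genes (purple), the 24 further Purkinje cell genes (green) and the 7 granule neuron genes (grey), at the edge and in near cortex, each against far cortex. Filled points have an edgeR adjusted p below 0.05. All 39 points lie below 0 at the edge, and none is filled in near cortex.

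Because RNA of other cells lowers CPM, the summed members were also set against the summed cortex list of 12 genes (granule, interneuron and Bergmann), a ratio that RNA from cells without either set of genes leaves as it is. In section 1 the log2 ratio of members to that list was 0.95 at the edge and 1.36 in far cortex, a difference of -0.41. In section 2 it was 0.86 and 0.81, a difference of 0.05. The sections thus had opposite signs, and the ratio gave no common change of Purkinje genes relative to these genes, which also chose the far cortex spots. Against 5 pan-neuronal genes, which chose no zone, the difference between edge and far cortex was -0.80 in section 1 and -0.66 in section 2. Between outside cortex and far cortex it was -3.74 and -3.31, so edge spots without a cortex profile favor a lower edge ratio. With the edge limited to spots of cortex profile, the edge difference was -0.46 and -0.07. In section 2 little of it was thus left among cortex spots. With the largest tumor group only, which redrew section 2 alone, the edge difference was -0.80 and -0.32.

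Genes of other cells were higher at the edge than in far cortex. The 6 macrophage genes, none of them at 0 in any zone, summed to 4163 CPM (not TMM-scaled) at the edge and 428.4 in far cortex of section 1, and to 2809 and 577.3 in section 2. The 6 oligodendrocyte genes summed to 9864 and 5949 CPM in section 1 and to 7556 and 5203 in section 2. The 3 astrocyte genes went from 4237 at the edge to 997.2 in far cortex of section 1 and from 5933 to 4859 in section 2. The part of these cells in the lower Purkinje gene levels was not tested.

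Depth also differed between zones. The median UMIs per spot were 13740 at the edge and 4773 in far cortex of section 1, and 11619 and 12131.5 in section 2. In raw UMIs per spot, Itpr1 was at 6.50 at the edge and 8.93 in far cortex of section 1, and at 5.99 and 17.9 in section 2. Rora was at 1.96 and 1.97 in section 1 and at 1.82 and 4.80 in section 2. Without scaling to depth, then, the edge of section 2 was far below its far cortex for the members other than Foxp2. Foxp2 was at 0.0508 and 0.112 there, on only 16 UMIs at the edge. In section 1 the differences were smaller for each member and close to 0 for Rora. They were also small there for Slc1a6 (1.12 at the edge and 1.21 in far cortex) and Foxp2 (0.0976 and 0.101).

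At equal depth the lower level appeared as fewer positive spots. After each spot was thinned to 3000 UMIs, Pcp2 was found in 36.6% of edge spots of section 1 (95% exact interval 30.0 to 43.7) and 38.1% of those of section 2, against 76.4% (71.3 to 81.0) and 77.1% in far cortex. In tumor, which should lack the gene, the shares were 5.93% and 4.74%, at median depths of 50035 and 34733 UMIs before thinning. Edge spots therefore lay above the background and below the cortex in both sections. Spots outside the cortex had shares of 17.3% in section 1 and 12.7% in section 2. The edge shares cover spots with and without a cortex profile. Thinning left out 123 of 437 far cortex spots of section 1 but only 3 of its edge spots, and without it the shares there were 72.7% at the edge, 83.5% in far cortex and 32.9% in tumor. In positive edge spots of section 1 the mean was 1.70 Pcp2 UMIs, against 2.49 in positive far cortex spots. Foxp2 was seen in 1.36% to 3.82% of edge and far cortex spots at this depth, too few to compare.

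Beyond the edge, 7 of the 8 members had a log2 fold change below 0 in near cortex, as had 8356 of 18947 genes tested. None of the members passed the test. No member was called at 4 to 8 steps, where 0% of all genes tested were called lower or higher and 1699 of 18947 had an unadjusted p below 0.05. Log2 fold changes of the members ran from -0.61 (Calb1, ± 0.30 SE, edgeR adjusted p = 0.58) to 0.00 (Foxp2). Of the 8 members, 0 had an unadjusted p below 0.05, and DESeq2 called 0 of 8 as well, with 139 genes called in all. Itpr1 was at 736.0 CPM in near cortex and 999.3 in far cortex of section 1, and at 934.6 and 1257 in section 2. Levels of 6 members (Pcp2, Calb1, Car8, Itpr1, Slc1a6 and Pcp4) were thus placed between edge and far cortex in both sections. None of them was called against far cortex, and near cortex was not tested against the edge. In section 2 near cortex also held 33 spots rich in choroid plexus genes, whose 3 genes summed to 29889 CPM there and 1521 in far cortex. Without such spots the count of members called stayed at 0. Of the 24 further Purkinje genes, 0 were called by edgeR and 1 by DESeq2, 23 had a log2 fold change below 0 and 7 an unadjusted p below 0.05, with a median log2 fold change of -0.48 against 0.06 over all genes. Itpka had the lowest value (-1.13 ± 0.22 SE, edgeR adjusted p = 0.37).

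The levels were then followed outward in bins of 3 steps, over spots of cortex profile only. All CPM values by distance are scaled to total UMIs and not by TMM, so they differ from the zone levels above. In section 1, Itpr1 was at 999.3 CPM in far cortex with TMM and 1551 without, and at 403.2 and 439.0 at the edge. Section 1 differences are thus larger on this scale. In section 2 the summed members rose with every bin, from 3648 CPM at 1 to 3 steps through 4793, 4949, 5726 and 6482 to 7226 at 16 steps and more. In section 1 they rose from 2571 through 2880, 4614 and 7188 to 8698 CPM at 13 to 15 steps and were at 5740 beyond. The closest bin was thus lowest in both sections over cortex spots, but only section 2 rose to the last bin, and the bin at 13 to 15 steps in section 1 held just 49 spots. Over all spots, outside cortex included, the direction from first to last bin was turned in section 1, with 1814, 1960, 3527, 3505, 1765 and 1326 CPM, while section 2 went from 2490 to 3917 CPM.

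Single members followed the sum with differences between them. Itpr1 went from 630.3 CPM at 1 to 3 steps to 2550 at 13 to 15 steps in section 1 and was at 1353 beyond, and in section 2 it went from 721.8 to 1452 in the last bin. Slc1a6 had no steady order in either section, with 108.6, 101.8, 188.3, 140.0, 292.6 and 234.1 CPM in section 1. Foxp2 stayed between 5.93 and 9.43 CPM in section 2, while in section 1 it went from 5.95 CPM, on 12 UMIs, to 23.3 CPM in the last bin, on 35 UMIs. Granule genes rose with every bin in section 2, from 1736 to 3918 CPM, as the members did, but in section 1 they peaked at 7 to 9 steps, at 2741 CPM, and were at 1410 where the members were highest.

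Raw counts per spot gave another picture in section 1. The summed members were at 39.0 UMIs per spot at 1 to 3 steps, 53.5 at 10 to 12 steps and 29.8 at 16 steps and more, so the spots closest to the tumor were above the farthest ones. In section 2 the raw values were 51.6 at 1 to 3 steps, 93.9 at 13 to 15 steps and 91.6 beyond. As a log2 ratio of the first bin to the last, the members were at -1.16 in CPM and 0.39 in raw UMIs per spot in section 1, and at -0.99 and -0.83 in section 2. In section 1 the first bin was thus below the last in CPM only, while in section 2 it was below on both scales. Depth differed between these bins of section 1, with 2016649 UMIs over 133 spots in the first and 1503841 over 290 in the last. Raw counts per spot follow depth, so they cannot tell which scale describes section 1 better.

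**Figure D4:**
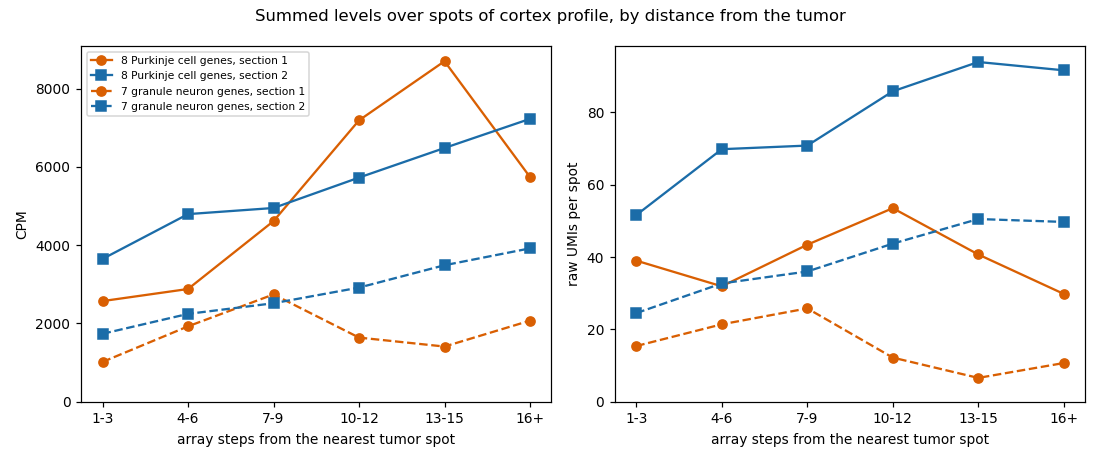
Summed levels of the 8 Purkinje cell genes (solid) and the 7 granule neuron genes (dashed) over spots of cortex profile, by array steps from the nearest tumor spot. CPM (not TMM-scaled) is on the left and raw UMIs per spot on the right, with 1 line per section. In CPM the first bin is lowest for every line, and in raw UMIs per spot the members of section 1 start at 39.0 and end at 29.8.

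Within the cortex the members varied together from spot to spot. Over the 28 pairs of members, the median r across cortex spots was 0.331 in section 1 and 0.576 in section 2. The highest r was 0.569 for Pcp2 with Itpr1 in section 1 and 0.810 for Pcp4 with Car8 in section 2. Pairs with Foxp2 stood at the bottom, down to -0.131 with Calb1 in section 1, and Foxp2 had the fewest UMIs of the members. The summed members had an r of 0.429 and 0.557 with Gdf10, a gene of the Bergmann glia that lie beside Purkinje cells. With the interneuron genes their r was 0.317 and 0.525, and with the granule genes -0.267 and -0.116. The r of the summed members with oligodendrocyte genes was -0.524 and -0.399. Gdf10, the interneuron and granule genes and some of the oligodendrocyte genes also chose the cortex spots. These values describe 633 and 970 spots that share library, depth and bands of layered tissue.

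Ranked over 13187 genes by the lower of the 2 sections' r with the summed members, the 10 most alike included Pvalb, Gng13, Fam107a, Gria1, Metrn, Sbk1, Dgkz, Homer3 and Slc1a3. Pvalb, the calcium buffer parvalbumin of Purkinje cells and interneurons, led with r = 0.754 and 0.896, and Slc1a3, a glutamate transporter of Bergmann glia and astrocytes, closed the 10 with 0.549 and 0.722. The median lower r over all ranked genes was -0.051. Of the 10, Pvalb, Gng13 and Homer3 were also on the list of further Purkinje genes. At the edge, the most alike genes did not all move like the members: Gng13 had a log2 fold change of -1.67 ± 0.26 (SE, edgeR adjusted p = 0.011), while Slc1a3 was at -0.31 ± 0.24 (adjusted p = 0.48) and Metrn, a secreted factor of glia, at -0.30 ± 0.23 (adjusted p = 0.48). The difference between these genes was not tested.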

How the data were processed

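Per the labels and the study's methods, the authors probed RNA with the Visium CytAssist mouse transcriptome kit for fixed tissue. The deposited matrices hold UMI counts per probe-targeted gene and spot, made with Space Ranger 2.1.1 on mm10, as the submitters' processing notes give. The total was 63986887 UMIs in section 1 and 71878333 in section 2. Probes differ in capture, so levels were compared within genes, not between them.

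Spots with at least 500 UMIs and 10 genes were kept. Tumor spots exceeded an Otsu threshold, per section, on epithelial and fibroblast genes smoothed over up to 6 neighbors, in groups of at least 25 spots, and distance was counted in hexagonal array steps. Cortex was set by 1 Otsu threshold over both sections on cortex against outside genes. UMIs were summed per section and zone (10 libraries), filtered with filterByExpr, scaled by TMM and fitted with edgeR 4.0.16 (R 4.3.3) with section as a block, since both zones of a contrast come from the same mouse. Adjusted p-values are Benjamini-Hochberg over 18947 genes. Each standard error (SE) was worked back from the test, as the size of the log2 fold change divided by the square root of its F statistic. Tests rest on 2 mice and on 4 residual degrees of freedom.

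The fit was also run on simulated counts with known changes at the edge only and no difference between sections. Its outcome is not used as support here. Section r values used log2(UMIs per 10000 plus 1) in cortex spots, with genes in at least 5% of spots ranked. Exact binomial and Poisson intervals cover counting error only. DESeq2 1.42.0, other scalings and other borders were tried as alternatives. Members and lists were chosen with earlier results of these data known. Named are all members, the 4 further genes that changed most at the edge (up and down taken apart, with none up) and the 10 genes most alike, of which 1 is not reported here. Plcb3 and single correlated genes were named after their values were seen.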

Additional observations from a re-analysis of the deposited data

How the results depend on the processing

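Members called lower at the edge numbered 5 by edgeR, 1 with no replicate block, 3 with an edge of 1 to 5 steps, and 0 with the edge limited to spots of cortex profile or with the largest tumor group only. Further Purkinje genes called lower there numbered 13, against 7 with no replicate block, 6 and 5 under those last 2 borders, and 20 with the tumor border from a list ratio. All genes called at the edge numbered 1190, against 1944 by DESeq2, 658 with no replicate block, 700 with an edge of 1 to 5 steps, 659 limited to cortex profile, 2206 with the ratio border and 609 with the largest group only. In near cortex DESeq2 called 1 further gene and 139 genes in all, where edgeR called 0. The number of all genes called without the block was 6341 in tumor and 2103 outside the cortex, where Pcp4 and Rora were then not called (5 of 8 members). No paired analysis other than this block by section was needed, since each section is 1 mouse.

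Of the log2 ratios to the cortex list, the edge mean of both sections moved from -0.18 to -0.73 with pan-neuronal genes as denominator, and to -0.27 with these and the edge limited to cortex profile, a pair of choices added after seeing the data. Leaving out 1 section at a time, a value with no test since no residual degrees of freedom remain, the edge ratio ran from -0.41 to 0.05, that of near cortex from -0.85 to 0.05 and the Rora log2 fold change in near cortex from -0.60 to 0.03. The mean log2 ratio of the first distance bin to the last was -1.08 in CPM (not TMM-scaled) and -0.22 in raw UMIs per spot. The share of spots with a Pcp2 UMI at the edge minus that in far cortex, as the mean of both sections, was -39.4 percentage points, -38.1 when thinned to 2000 UMIs and -25.7 not thinned, where section 1 gave -10.8 and section 2 -40.6. The causes were not tested. Depth limits Foxp2 most, with 16 to 105 UMIs per zone.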
